A study of Drosophila melanogaster with 3 samples.

Results

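The 6 early puff genes of the moulting hormone ecdysone, br, Eip74EF, Eip75B, Eip78C, Eip93F and Eip63F-1, were taken by name from the 18358 genes of the Ensembl annotation of the fly genome (dm6). A binding region was assigned to a gene where its summit lay in the gene or no more than 1 kb outside it. The 6 genes then held 29 of the 5246 regions in the authors' optimal list and 214 of the 30000 in their pooled list. In the full lists of replicates 1, 2 and 3, each of 30000 regions, they held 159, 206 and 197.

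The data are chromatin immunoprecipitation and sequencing (ChIP-seq) of the CG7368 protein of Drosophila melanogaster. All 3 samples are whole prepupae of both sexes, pooled, from a single transgenic strain in which CG7368 carries green fluorescent protein (GFP) at its C terminus, and an antibody to GFP was used for the precipitation. They form 1 group of 3 biological replicates, their age is given as unknown, and a possible control experiment named in the labels was not analysed here. No condition is compared, so what follows sets regions, promoters and replicates of these genes side by side. In whole animals, strong binding in few cells and weak binding in many cannot be told apart. The signal of a region is the authors' value, of unstated formula, and the depth of the libraries is unknown. Median signals of the full replicate lists were 14.6, 18.4 and 18.5, so ranks rather than signals are compared between replicates, with rank 1 the highest signal.

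Ecdysone acts through a heterodimer of the nuclear receptors EcR and Usp. A pulse of the hormone at the end of larval life switches on a small set of early genes, whose loci swell into puffs on the polytene chromosomes of the salivary gland. Many early genes encode transcription factors that switch on later genes and repress their own transcription. The order of puffs in salivary glands was the basis of the Ashburner model of hormone cascades. br encodes the Broad family of BTB zinc finger factors, Eip74EF an ETS domain factor, and Eip93F a helix-turn-helix factor with roles in the death of larval tissue and in adult fate. Eip75B and Eip78C encode nuclear receptors related to vertebrate Rev-erb, and Eip63F-1 encodes a calcium-binding protein with EF hands.

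The sequences around 10 of the 29 summits are shown because they are the strongest peaks of Eip75B and Eip78C, the peaks at own promoters of the other genes, the strongest peak of Eip74EF and its peak with a nuclear receptor hexamer. Each runs 5′ to 3′ on the coding strand of its gene, 50 bases either side of the summit, from the RefSeq copy of dm6, and capitals mark runs of at least 5 A or 5 T. No window holding annotated exon sequence is shown, which leaves out the summits in the transcribed leaders at the RC and RA promoters of Eip75B.
Eip78C, first intron of RB, chr3L:21253846-21253946, plus strand: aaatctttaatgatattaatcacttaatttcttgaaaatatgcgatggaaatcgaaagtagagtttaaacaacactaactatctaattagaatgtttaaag
Eip75B, first intron of RG, chr3L:18011872-18011972, minus strand: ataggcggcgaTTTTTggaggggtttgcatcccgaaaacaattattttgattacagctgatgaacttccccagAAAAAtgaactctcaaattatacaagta
Eip75B, first intron of RG, chr3L:18009120-18009220, minus strand: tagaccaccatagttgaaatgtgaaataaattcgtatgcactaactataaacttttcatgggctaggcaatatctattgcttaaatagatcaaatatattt
Eip74EF, upstream of RB, chr3L:17578489-17578589, minus strand: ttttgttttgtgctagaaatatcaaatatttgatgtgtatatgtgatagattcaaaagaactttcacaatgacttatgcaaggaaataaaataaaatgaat
Eip74EF, first intron of RB and RD, chr3L:17567074-17567174, minus strand: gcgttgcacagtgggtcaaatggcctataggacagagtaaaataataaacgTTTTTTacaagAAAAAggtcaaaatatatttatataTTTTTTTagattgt
Eip74EF, promoter of RA, RC and RE, chr3L:17619507-17619607, minus strand: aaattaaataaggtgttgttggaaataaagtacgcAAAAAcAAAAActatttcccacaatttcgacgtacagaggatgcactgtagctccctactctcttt
Eip93F, promoter of RA and RC, chr3R:21972271-21972371, plus strand: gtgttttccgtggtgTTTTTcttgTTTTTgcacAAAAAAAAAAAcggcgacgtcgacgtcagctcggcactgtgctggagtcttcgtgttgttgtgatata
Eip63F-1, promoter of RB, chr3L:3928658-3928758, minus strand: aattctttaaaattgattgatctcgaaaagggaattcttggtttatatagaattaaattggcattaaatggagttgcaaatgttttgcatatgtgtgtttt
br, promoter of RP, chrX:1612037-1612137, plus strand: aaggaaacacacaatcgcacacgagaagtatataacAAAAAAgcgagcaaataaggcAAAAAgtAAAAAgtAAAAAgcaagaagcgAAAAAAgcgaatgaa
br, promoter of RI, chrX:1613426-1613526, plus strand: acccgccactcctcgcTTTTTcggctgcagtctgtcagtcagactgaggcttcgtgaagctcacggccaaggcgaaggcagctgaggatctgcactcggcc

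All 6 genes carried at least 1 optimal summit, as did 24.2% of protein-coding genes. The 6 are long, with a median length of 63040 bp against 2162.5 bp for all 13986 protein-coding genes. Among the 799 protein-coding genes at least as long as Eip63F-1, the shortest of the 6, 62.3% had an optimal summit. The median length of these 799 was 44049 bp, still shorter than that of the 6. At least 3 optimal summits were found at 4 of the 6 genes, against 3.58% of protein-coding genes and 32.8% of the long ones. The 29 summits were uneven, with 13 at Eip75B, 7 at Eip74EF, 3 each at Eip78C and Eip93F, 2 at br and 1 at Eip63F-1.

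**Figure D1:**
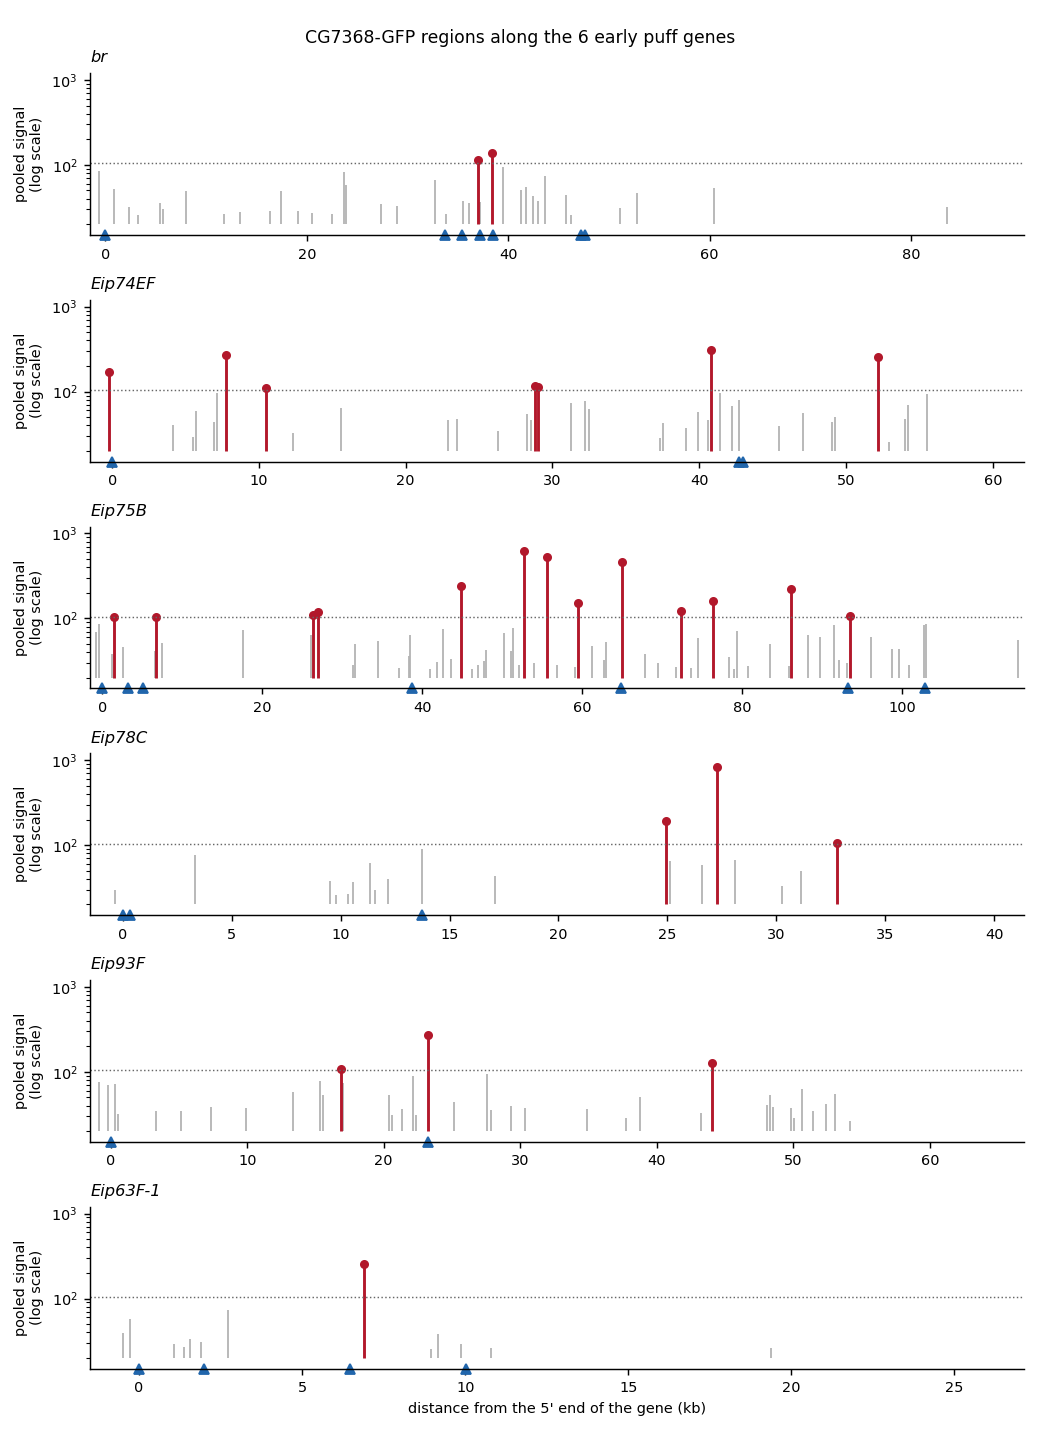
Each panel shows 1 gene from its 5′ end, in kb, with the pooled signal of every region on a log axis (height of the stem). Red stems with dots are the 29 optimal peaks, grey stems regions that were not retained, blue triangles transcription start sites, and the dotted line the lowest optimal signal, 104.1. Optimal peaks are dense in the middle of Eip75B and absent near the 5′ end of Eip78C.

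Summits lay within 500 bp of a transcription start site (TSS) of the same gene in 7 of 29 cases. The other 22 lay in introns, and none was in a coding exon or a 3′ UTR. From the nearest TSS of the same gene, 19 of 29 were over 5 kb away and 11 over 10 kb. In 7 cases the nearest TSS belonged to another gene, always the nested genes lncRNA:CR45921, lncRNA:CR45922 or CG43218. Counted against the TSSs of any gene, 8 of the 29 summits (27.6%) were within 500 bp, against 38.3% of all optimal summits and 23.8% of those at long genes. By the same count 21 of 29 (72.4%) were intronic and farther than that from every TSS, against 42.9% of all and 73.2% at long genes. Over 5 kb from every TSS were 14 of 29 (48.3%), against 20.3% of all and 35.1% at long genes, and over 10 kb 5 of 29 (17.2%), against 8.43% and 18.7%. The share over 5 kb was the one farthest from that of the long genes.

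The br locus (FBgn0283451, X, 1575132 to 1664869, plus strand) was the least marked for its size. Its optimal peaks stood at the start sites of RI and of the group of 9 isoforms that begins at RP, and none lay elsewhere in 89738 bp. The RI peak (1613268 to 1613683) had a summit 181 bp upstream of the TSS, a signal of 139 and rank 3513 in the optimal list, and ranked 2342, 4757 and 3746 in replicates 1, 2 and 3. The RP peak (1611879 to 1612294), with its summit 221 bp upstream, had a signal of 115.2 and ranks of 2000, 7547 and 6525. Replicate 1 placed both peaks highest, and the RP peak was among the 5246 highest regions in that replicate alone. The distal promoter of RN and RO had no pooled region within 500 bp, and neither had those of RS and RM. Of 37 pooled summits at br 2 were optimal (5.41%), the lowest share of the 6 genes, and none of its 31 intronic ones. The whole of br lies inside the span of Mur2B, a gene on the opposite strand, so these peaks lie inside Mur2B as well.

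Eip74EF (FBgn0000567, 3L, 17558672 to 17619325, minus strand) has a distal promoter, which drives the E74A mRNA, and an internal pair of start sites for E74B. The distal promoter of RA, RC and RE carried an optimal peak (17619349 to 17619764) with a signal of 171, a summit 232 bp upstream and ranks of 2353, 4289 and 2317 in replicates 1, 2 and 3. No optimal summit lay within 500 bp of the internal start sites of RB and RD. A pooled region there had a signal of 80.1 and rank 7375, under the lowest optimal signal. In replicates 1, 2 and 3 the highest region within 500 bp of RB ranked 4877, 4218 and 5478. It was thus among the 5246 highest in replicates 1 and 2, and in replicate 2 it ranked above the distal promoter.

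The strongest Eip74EF peak (17578331 to 17578746), 1913 bp upstream of RB and inside an intron of the long isoforms, had a signal of 308. Its ranks were 977, 685 and 1818. A further pair of intronic peaks was nearly as strong, with closer ranks. The one in the first intron of the long isoforms, 7778 bp downstream of their TSS (17611339 to 17611754), had a signal of 273 and ranks of 1020, 1453 and 1216, and the one 9196 bp downstream of RD (17566916 to 17567331) a signal of 253 and ranks of 1322, 1635 and 1410. All 3 were among the 5246 highest regions of every replicate. Weaker peaks with signals of 114.8 and 115.7 overlapped each other and shared their regions in replicates 1 and 2, though they are counted separately among the 29, and a last one had a signal of 109.

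Eip93F (FBgn0264490, 3R, 21949114 to 22014539, plus strand) has 2 promoters. The internal one, of RA and RC, carried the strongest peak (21972113 to 21972528), with a summit 58 bp upstream, a signal of 273 and ranks of 1133, 1132 and 1560. The distal one, of RB, had pooled regions of at most 72.4, though replicate 1 placed a region there at rank 2916, against 7824 and 8014 in replicates 2 and 3. The other optimal peaks of Eip93F were intronic, with signals of 126 (21992934 to 21993349, ranks 5086, 2611 and 6120) and 109 (21965747 to 21966162, ranks 6081, 4541 and 3268). Each was under the 5246 highest regions in 1 replicate.

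Eip75B (FBgn0000568, 3L, 17950953 to 18064696, minus strand) was the most marked of the 6, and 14 of 13986 protein-coding genes, Eip75B among them, had at least 13 summits. Its strongest peaks fell in a stretch from the RC promoter back into the first intron of RG, which is 32334 bp long. The peak 12101 bp upstream of RC (18011743 to 18012061) had a signal of 613 and ranks of 314, 172 and 228 in replicates 1, 2 and 3. The peak 9349 bp upstream of RC (18009063 to 18009282) had a signal of 522 and ranks of 327, 306 and 346.

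The RC promoter itself (17999674 to 17999900) had a summit 44 bp downstream of the TSS, in the 5′ UTR, a signal of 461 and ranks of 390, 592 and 358. All 3 strong places thus ranked 592 or better in each replicate. A further peak in the same intron (18019780 to 18019889) had a signal of 240 and ranks of 1570, 1669 and 1808. The RA promoter peak (17971046 to 17971461) was much weaker, with a signal of 106 and ranks of 3101, 5552 and 11590, and only replicate 1 held it among the 5246 highest.

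The remaining 8 Eip75B peaks were intronic, with signals from 105 to 220. The strongest of them (17978432 to 17978847, signal 220) lay 7201 bp upstream of RA and ranked 3156, 1472 and 1983. A peak of signal 110 (18038195 to 18038610) lay 123 bp upstream of the nested noncoding gene lncRNA:CR45922, and the TSS of that gene was also the nearest to a peak of signal 117. No optimal summit lay within 500 bp of the promoters of RB, RD, RE, RF or RG. Those of RF and RD had pooled regions of 84.7 and 85.7, and those of RB and RE none.

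Eip78C (FBgn0004865, 3L, 21226609 to 21266503, plus strand) held the strongest peak of all 6 genes and was the only one with no optimal promoter peak. The peak (21253750 to 21254042) lay in the first intron of RB, 13549 bp downstream of its TSS, with a signal of 821 and rank 96 of 5246. Signals in replicates 1, 2 and 3 were 212, 278 and 313, at ranks 76, 156 and 92. The RB promoter had a pooled region 18 bp from the TSS, with a signal of 90.2 and rank 6305 (ranks 11039, 10507 and 6778 in the replicates), and the promoters of RA, RD and RE had at most 29.6. A second intronic peak (21251336 to 21251751) had a signal of 192 and ranks of 3036, 1636 and 3263. The third (21259189 to 21259604), 1377 bp downstream of the TSS of the nested gene CG43218, had a signal of 105 and ranks of 2530, 16106 and 4771, low in replicate 2.

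Eip63F-1 (FBgn0004910, 3L, 3909973 to 3935617, minus strand) had 1 optimal peak (3928607 to 3928754), with a summit in the first intron of RB, 455 bp downstream of its TSS. Its signal was 252 and its ranks of 1802, 1475 and 1514 were close in all replicates. At this distance it counts as a promoter summit with a window of 500 bp and would not with 250 bp. The start sites of RA, RC and RD had pooled regions of at most 57.8.

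**Figure D2:**
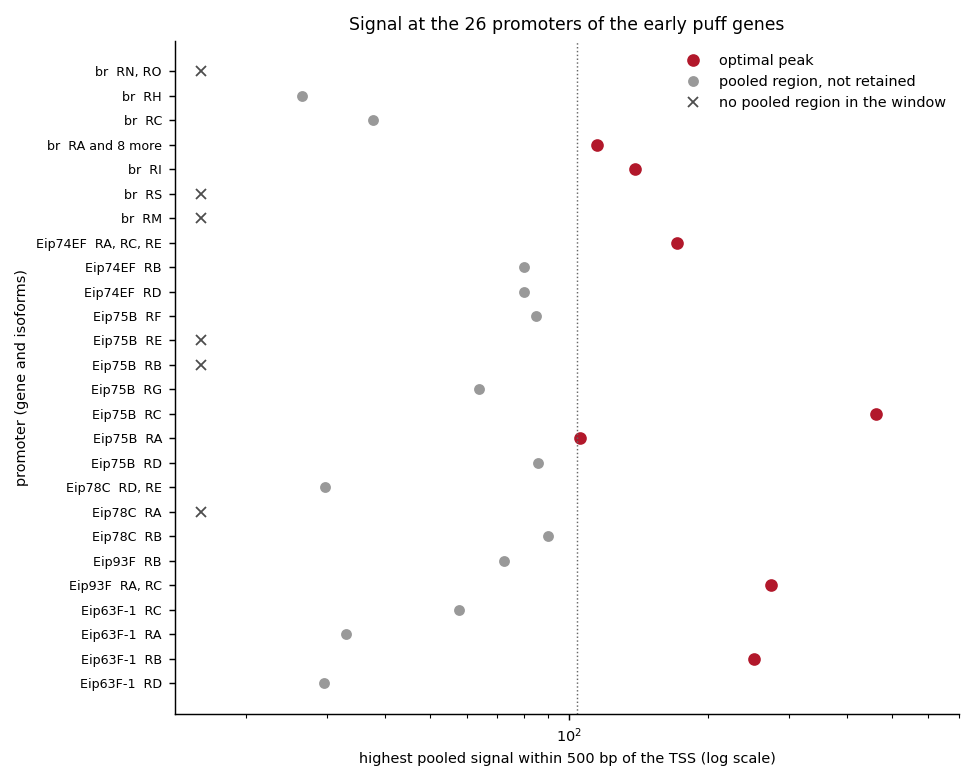
Each line is 1 of the 26 promoters, in order along each gene, and the x axis is the highest pooled signal within 500 bp of the start site (log scale). The 7 promoters with an optimal peak (red) lie right of the dotted line at 104.1, 13 had a weaker region (grey) and 6 had none (crosses).

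Start sites of a gene within 100 bp of each other were treated as 1 promoter, which gave 26 promoters. An optimal summit lay at 7 of them (26.9%), against 13.7% of all promoters of protein-coding genes and 18.1% of those of long genes. By gene, 5 of 6 had an optimal summit at an own promoter, against 14.9% of protein-coding genes and 31.4% of long ones. These shares by gene were not matched for the number of promoters, 26 at the 6 genes against 1872 at the 799 long genes. The farthest upstream promoter was marked at Eip74EF only, and the marked promoters of br, Eip75B, Eip93F and Eip63F-1 were internal ones. Counting the 5246 highest regions of single replicates, 9, 7 and 5 of the 26 promoters were marked in replicates 1, 2 and 3.

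**Figure D3:**
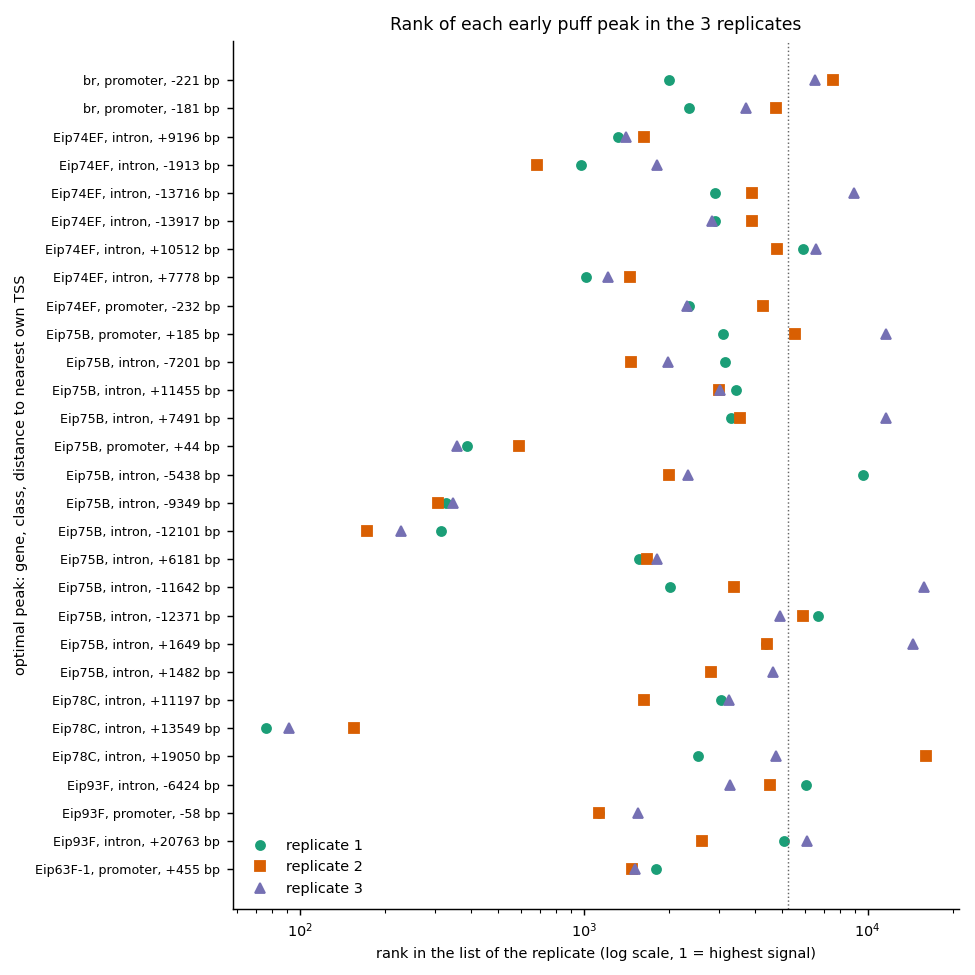
Rank of the region that overlaps each of the 29 optimal peaks in replicates 1, 2 and 3 (x axis, log scale), with each peak named by gene, class and distance to the nearest own start site. The dotted line is rank 5246. The Eip78C peak of signal 821 lies farthest left, at 76 to 156, and 16 of the 29 peaks lie left of the line in all replicates.

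Of the 29 peaks, 28 overlapped a region in every replicate list, as did 98.2% of all optimal peaks. The exception was an Eip75B peak of signal 105 (18063006 to 18063421), with no region in replicate 1 and ranks of 2815 and 4658 in the others. The region stood among the 5246 highest in all 3 replicates for 16 of 29 peaks, or 55.2%, against 66.1% of all optimal peaks. Among the 16 is the Eip74EF peak of signal 115.7, whose replicate 3 region has its summit 301 bp away. The median SD of ranks over the 3 replicates was 0.51 in log2 units at the 28 peaks and 0.43 at all optimal peaks that had a region in each. The 29 peaks had a median signal of 153, against 169 for all optimal peaks, and neither comparison was matched for signal. The order of the 28 gave Spearman's rho of 0.660 for replicates 1 and 2, 0.698 for 1 and 3 and 0.805 for 2 and 3, given as a description since peaks of a gene and overlapping regions are not independent.

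The difference in rank between promoter and intronic peaks was within the spread of the replicates. The median rank of the 7 promoter peaks was 2000, 4289 and 2317 in replicates 1, 2 and 3, and that of the intronic peaks 2907, 2713 and 3142. Promoter peaks therefore ranked higher in replicates 1 and 3 and lower in replicate 2. The difference, intron minus promoter, was 0.11 ± 0.67 log2 units (SD, n = 3, exact sign-flip permutation test, two-sided, p = 1), and the smallest p that 3 replicates allow is 0.25. With no culture or animal named for each replicate, such a p speaks for these 3 samples only. Among pooled summits 7 of 27 at promoters (25.9%) and 22 of 181 in introns (12.2%) were optimal, and 13.6% of all 214, against 19.3% of pooled summits at protein-coding genes and 17.5% of the whole pooled list. Shares by class were not computed for the whole pooled list. Whether the difference between promoters and introns is particular to these genes was therefore not tested.

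**Figure D4:**
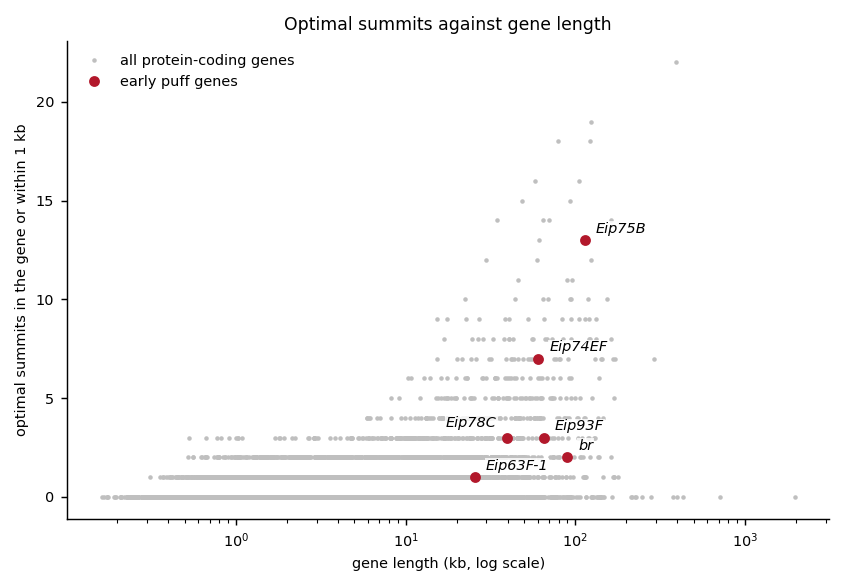
Gene length in kb (x axis, log scale) against the number of optimal summits at the gene (y axis) for 13986 protein-coding genes (grey) and the early puff genes (red). Eip75B, with 13 summits, stands near the top for its length, and br, with 2, does not.

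Per length, the 6 genes together held 7.12 optimal summits per 100 kb of gene and flanks, against 3.70 in the long genes and 4.72 in all protein-coding genes, where flanks make up much of the span. Among the highest regions of single replicates the values were 8.35, 7.61 and 5.90 per 100 kb, or 7.29 ± 1.26 (SD, n = 3), against 3.61 ± 0.048 in the long genes, so all 3 replicates lay above. Eip75B and Eip74EF had the highest density, 11.2 each, followed by Eip78C with 7.16. Eip93F had 4.45, Eip63F-1 3.62 and br 2.18, and 45.7% of long genes were below br, against 89.0% below Eip75B. These are descriptions of 6 genes, with no test.

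**Figure D5:**
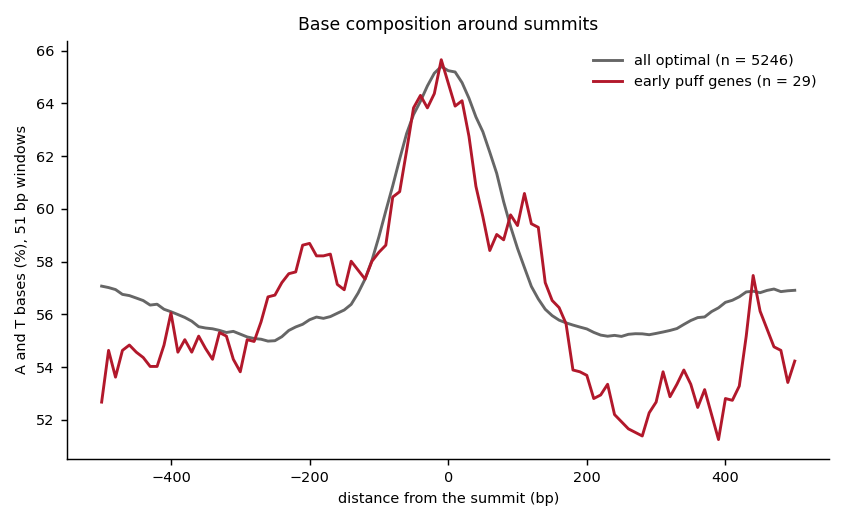
Percent of A and T bases in 51 bp windows (y axis) against distance from the summit in bp (x axis) for the 29 early puff peaks (red) and all 5246 optimal peaks (grey). Both rise to about 65% at the summit, and the red line is rougher because it averages few peaks.

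Base composition at the early puff peaks was that of the optimal list. In the 51 bp centred on the summit A and T made up 64.8% (SD over 29 peaks 11.02), against 65.2% at all optimal peaks. At summits of the single replicates the value was 63.1 ± 1.79% (SD, n = 3). Runs of at least 5 A or 5 T, in capitals in the sequences above, were in 17 of the 29 windows of 101 bp (58.6%) and in 56.9% of all. They were longest at the Eip93F promoter of RA and RC, with 11 A in a row, and absent from the strongest peak, that of Eip78C.

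Short words, read on both strands in the same windows, were rare. AAAAAAA was in 4 of 29 windows (13.8%, against 14.2% of all optimal windows), TATAAA in 4 (13.8% against 19.9%) and the homeodomain word TAATTA in 1 (3.45% against 8.39%), the Eip78C peak of signal 821. The core hexamer of nuclear receptor sites, AGGTCA, was in 1 window (3.45% against 1.79%), the Eip74EF peak in the first intron of RB and RD shown above, where it overlaps a run of A. The repeat GAGAGAG was in 1 window, at Eip75B (2.15% of all). The repeat CACACAC was in 1 window, also at Eip75B (2.86% of all). The AP-1 word TGANTCA was in none of the 29 (2.31% of all), nor was the E-box CACGTG (0.553% of all) or the GATA word GATAAG (5.15% of all). The inverted-repeat consensus of the ecdysone response element, a longer word, was in none of the 5246 windows. Its absence therefore does not set the early puff peaks apart, and does not show that looser forms of the element are absent.

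For each gene the protein-coding gene of most like pattern was found from 6 values, the number of summits among the highest regions and the best rank in each replicate. Over the 5895 genes with a region in all 3 replicates these were tara for Eip75B, msn for Eip74EF, papi for Eip78C, tun for Eip93F, orb for Eip63F-1 and CG5446 for br. Gene length was not among the 6 values. The matches ranged from tun, 61646 bp against 65426 bp for Eip93F, to CG5446, 1079 bp against 89738 bp for br. The closest match was orb, at a distance of 0.11 log2 units, with 1 summit per replicate and ranks of 1943, 1485 and 1496. The match of Eip75B, tara, at 0.44, held 16, 16 and 11 summits in replicates 1, 2 and 3, against 13, 13 and 10.

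Other genes of the ecdysone pathway are given by role. Of 82 matched genes 30 (36.6%) had an optimal summit, against 24.2% of protein-coding genes and 62.3% of the long ones. Their lengths ran from 387 to 83434 bp and were not matched between roles, so shares by role cannot be told apart from length. In a mixed list of 15 genes, of nuclear receptors, other regulators and the transporter gene E23, 13 had an optimal summit. The highest were the nuclear receptor gene Hr4 (signal 1290, ranks 31, 24 and 25 in replicates 1, 2 and 3), E23 (644) and the nuclear receptor gene Hr3 (470). Among the receptor, its partner and cofactors 5 of 10 did, led by the chaperone gene Hsp83 (643), the corepressor gene Smr (351) and the coactivator gene tai (328), and EcR itself held 5 summits of up to 268 with none at a promoter. Of 10 genes listed under synthesis, not all of which encode enzymes that make the hormone, only shd was marked (202). It encodes the last hydroxylase of the pathway. Of both transport genes only Oatp74D, the ecdysone importer gene, was marked (330). Of 35 other hormone-induced puff, glue and storage genes 5 were marked, led by ImpL2 (749), Ldh (390) and ImpE1 (281). The list of 10 cell death genes, which includes the apoptosis inhibitor gene Diap1 and the cell cycle gene E2f1, had 5 marked. It was led by Diap1 (505), hid (484) and E2f1 (296).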

How the data were processed

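The deposited lists of regions are in dm6 coordinates, one list for each of the 3 replicates (peaks and background, made as input for the irreproducible discovery rate procedure), a pooled list from the alignments of all 3, each also made with 1 further file of unstated kind, and an optimal list derived from these, per the text that accompanies the files. The signal of each region (column 7) is the value the authors deposited. The aligner, peak caller, read depth and signal formula are not stated in the sources used here. Per the labels chromatin was sonicated to 200 to 800 bp. Starts were converted to 1-based positions, and the summit is the start plus the offset in the file, which in 23 of the 29 peaks is the middle of a region of 416 bp. Genes and start sites came from Ensembl release 115, with transposable elements left out, and all 6 genes had the same span in the RefSeq annotation of that assembly. Replicate ranks are those of the best region that overlaps the optimal peak by at least 1 bp. Such a region can have its own summit elsewhere, 314 bp away in replicate 1 for an Eip75B peak of signal 153. Named genes are the 6, nearest or nested genes, most-alike genes, and the 3 highest of each pathway role. EcR was named after its values were seen. The gene phm matched no symbol. Members and lists were chosen with earlier results of these data known. Counting was tested on simulated data. Python 3.11.15, pandas 2.3.3, NumPy 2.4.6, SciPy 1.17.1 and Matplotlib 3.10.9 were used. Lists in dm3 were not used.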

Additional observations from a re-analysis of the deposited data

How the results depend on the processing

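No paired analysis was possible because there is 1 group. The early puff genes held 29 optimal summits, 13 when the 50% of peaks with the highest signal were used, 16 when the region had to be among the highest of all 3 replicates, and 17 to 21 when that was asked of each pair of replicates. Counting overlapping peaks as 1 site, an alternative chosen after seeing the data, gave 28. The mean replicate count of 29.7 became 66 with the highest 10000 regions, and 27.5 to 32.5 with a replicate left out. Density relative to all protein-coding genes was 1.51 times, 1.94 with no flank and 1.93 against long genes. It was 1.23 to 1.48 for optimal summits that were also among the highest regions of each pair of replicates. The intron minus promoter rank difference of 0.11 became -0.025 with a reciprocal overlap of 50%, and ranged from -0.11 to 0.49 with a replicate left out, turning negative without replicate 1 and, at -0.061, without replicate 3. The cause was not tested. The median SD of 0.51 became 0.54 with the reciprocal overlap, and 0.32 to 0.36 over pairs of replicates, which hold fewer values. A and T made up 64.8% at optimal summits, and 62.4% to 64.1% at replicate summits with a replicate left out, 62.8% without replicate 1. The number of genes with an own promoter summit, 5, stayed at 4 or 5 under every alternative run. Depth is unknown, so no limit of detection can be given.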

Other observations

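Beyond 1 kb and up to 5 kb from the genes lay 4 further optimal summits. A pair flanked br, with signals of 146 at 4630 bp from the gene's upstream end and 136 at 4562 bp from its downstream end. One lay 2289 bp upstream of Eip74EF, with a signal of 191, above that of the peak at its distal promoter, and the last lay 4834 bp upstream of Eip93F, with a signal of 117.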
